A study of Mus musculus with 18 samples.

Results

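The testes of 7 untreated hypogonadal (hpg) mice were described on their own, without any hormone-treated mouse. They were chosen as the samples whose labels call them untreated controls, 7 of the 18 arrays of the series, and the other 11 arrays, from mice given follicle-stimulating hormone (FSH), entered no value here. Each control was an adult hpg male aged 10 weeks, given no hormone per the labels, and gave whole-testis RNA and 1 array (Affymetrix MOE430A, 1 colour). The hpg mouse carries a loss of the gonadotrophin-releasing hormone gene in every cell, and the gene itself was not analysed here.

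Gonadotrophin-releasing hormone from the hypothalamus drives the pituitary to secrete luteinising hormone (LH) and FSH. LH acts on Leydig cells, which lie between the seminiferous tubules and make testosterone, and FSH acts on Sertoli cells, which line the tubules and nurse the germ cells. Germ cells pass from spermatogonia through meiosis (leptotene, zygotene and pachytene spermatocytes) to round and then elongating spermatids, and the later steps are known to depend on testosterone. In hpg testes the tubules stay small, Leydig cells stay immature, and germ cell development is known to stop mostly during meiosis.

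Values are log2 signal per probe set as the authors deposited them, and each of the 12393 measured genes is represented by its brightest probe set. A low value is a bound, since a probe set also reads a background. The floor of an array was taken as the 95th percentile of the probe sets for 55 genes of other organs, such as milk, lens, tooth and pancreas genes, and lay between 3.41 and 4.06. Probe sets differ in affinity, so the order of genes is an order of signals and not of transcript amounts. In a whole testis, fewer cells of a type and less RNA per cell cannot be told apart.

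The 7 arrays fell into 2 technical sets. Probe sets for the bacterial Dap spike-in read 2.74 to 2.90 on the arrays of controls 1 to 3, called array set 1 here, and 8.37 to 8.92 on those of controls 4 to 7, called array set 2. Ribosomal RNA probe sets read 9.07 to 11.7 in set 1 and 3.37 to 3.70 in set 2. The signal at the 3′ end of the actin transcript minus that at its 5′ end was 0.90 to 1.10 in set 1. It was 1.36 to 1.82 in set 2, and its part in the differences between the sets was not tested. Correlations between arrays were 0.961 to 0.994 over all probe sets, and control 6 stood apart, with a median correlation of 0.969 with the others, against 0.982 to 0.986 for the other arrays. Values without control 6 are given where a result rests on it.

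A total of 7011 genes, 56.6% of those measured, were above the floor in all 7 mice, 4122 (33.3%) were at the floor in all 7, and 1260 were above it in some mice. The 56.6% is the share to set beside the counts of gene lists given below, and no list was tested against it. Single arrays had 7287 to 7859 genes above the floor. The median gene had a mean of 5.36, 576 genes averaged 10 or more, and 80 averaged 12 or more.

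The strongest signal in the untreated hpg testis came from Clu, which encodes clusterin, a major secreted product of Sertoli cells. Its level was 14.2 in controls 1, 2 and 3, and 14.7, 14.8, 14.3 and 14.4 in controls 4 to 7, so the mice lay within 0.57 of each other. Of the 20 genes with the highest mean, 14 encoded ribosomal proteins, among them Rps28 (13.91 ± 0.05, SD, n = 7) and Rpl37a (13.86 ± 0.08). The others included Eef1a1, a translation elongation factor (14.00 ± 0.12), Tpt1 (13.80 ± 0.11), Tsc22d1 (13.37 ± 0.12) and Tmsb10, an actin-binding thymosin (13.15 ± 0.19). All 21 measured members of the oxidative phosphorylation list were above the floor, with a median level of 10.87, as were 16 of 17 ribosomal protein genes, with a median of 12.75.

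Most Sertoli cell transcripts were above the floor in every mouse. Of 27 measured Sertoli genes, 22 were above the floor in all 7 mice and 3, Amh, Krt18 and Erbb4, at the floor in all, and the list's median level was 8.44, against 5.36 over all genes. The SD between mice within array sets had a median of 0.25 over the list, against 0.23 over all genes above the floor. Aard ranked 21 among all genes by mean signal, with a lowest value of 12.79, a median of 13.02 and a highest of 13.52. The protease inhibitor gene Cst12 read 12.4 to 12.7, the cathepsin gene Ctsl 12.0 to 12.3 and the intermediate filament gene Vim 11.01 to 12.20. The gonadal transcription factors Sox9, Wt1, Gata4 and Dmrt1 were above the floor in all mice. Lowest, median and highest values were 8.54, 8.80 and 9.72 for Sox9, and 8.37, 8.74 and 9.25 for Wt1. They were 7.01, 7.28 and 7.69 for Gata4, and 9.14, 9.26 and 9.66 for Dmrt1. Of the 19 measured genes of the gonadal transcription factor list, 12 were above the floor in all mice and 6 at the floor in all. Dhh, a hedgehog ligand that Sertoli cells send to Leydig and myoid cells, averaged 9.04 ± 0.46 (SD, n = 7), and Kitl, the ligand of the spermatogonial receptor Kit, averaged 9.63 ± 0.30. Cldn11, which builds the blood-testis barrier, averaged 9.77 ± 0.33.

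Transcripts of 3 inhibin and activin subunits, Inha, Inhbb and Inhba, were each above the floor in every mouse. Inha, the alpha subunit, read 10.05, 10.20, 10.19, 9.98, 10.31, 9.81 and 9.88 in controls 1 to 7. Inhbb, the beta B subunit, had a lowest value of 8.77, a median of 9.31 and a highest of 9.57. Inhba, the beta A subunit, read 4.28 to 4.74. Amhr2, the receptor of anti-Müllerian hormone, averaged 9.99 ± 0.14, and its ligand Amh, which immature Sertoli cells make, was at the floor in all 7 mice, at 1.54 to 1.59. Fst, which encodes the activin-binding follistatin, was at the floor too, at 2.47 to 3.28. Of the 20 measured genes of inhibin, activin and anti-Müllerian signalling, 13 were above the floor in all mice and 4 at the floor in all.

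Fshr, the FSH receptor of Sertoli cells, was above the floor in every untreated mouse. It read 5.86, 5.40 and 5.52 in controls 1 to 3 and 6.78, 6.62, 6.39 and 6.24 in controls 4 to 7. The groups did not overlap, and the difference of set 1 minus set 2 was -0.92 ± 0.17 on the log2 scale (SE; limma, adjusted p = 0.0464 over all probe sets). The call was lost under quantile normalization of the 7 arrays (adjusted p = 0.0574) and in 6 of the 7 fits that each left out 1 mouse, with adjusted p between 0.0778 and 0.116. Downstream of the receptor, Gnas, the stimulatory G protein, averaged 11.23 ± 0.20 and Prkar1a, a regulatory subunit of protein kinase A, 10.37 ± 0.19. Of the 19 measured genes of this signal relay, 10 were above the floor in all mice, against 56.6% of all measured genes.

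Rhox5, Eppin and Tsx, of the Sertoli list, varied more between mice than most genes, with SDs within array sets of 0.85, 0.49 and 0.48. Rhox5, a homeobox gene and a standard androgen target of Sertoli cells, read 3.03, 3.04, 3.64, 4.19, 3.83, 5.56 and 3.02 in controls 1 to 7. It was at the floor in 4 mice and highest in control 6. Eppin, an epididymal and Sertoli protease inhibitor, read 4.34, 4.62 and 4.15 in controls 1 to 3 and 6.51, 5.91, 7.10 and 5.81 in controls 4 to 7, again highest in control 6. Tsx, an X-linked Sertoli transcript, read 7.97, 8.06, 7.28, 8.06, 8.52, 9.30 and 8.54.

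Cst9, a cystatin of Sertoli cells, split the mice in another way. It read 10.3, 5.71, 6.58, 6.45, 11.5, 11.5 and 6.70 in controls 1 to 7, so that controls 1, 5 and 6 stood above 10 and the other mice below 7. Its SD between mice within array sets was 2.68, against a median of 0.23 over the genes above the floor. This order did not follow the array set, since both sets held mice at each end.

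Most measured genes of Leydig steroid synthesis were above the floor in every mouse, and most of adult Leydig maturation were not. Of 9 measured steroid synthesis genes, 7 were above the floor in all mice, 1 in some mice and 1 in none. The median level was 7.84 for steroid synthesis and 3.09 for adult Leydig maturation. Hsd3b1, a 3-beta-hydroxysteroid dehydrogenase, was high in every mouse, with a lowest value of 11.2, a median of 11.8 and a highest of 12.4. Cyp11a1, which cleaves the cholesterol side chain, was at the floor in 6 mice, at 2.69 to 3.05, and read 4.40 in control 5. Hsd17b3, which makes testosterone from androstenedione in adult Leydig cells, was at the floor in all 7 mice, at 2.66 to 2.79. Star, which brings cholesterol into mitochondria, read 5.12, 5.37, 5.36, 5.19, 6.42, 5.22 and 5.62, and Cyp17a1, the 17-alpha-hydroxylase, read 7.71, 6.98, 6.63, 8.43, 9.55, 8.25 and 7.30. Control 5 was highest for Cyp11a1, Star, Cyp17a1 and Hsd3b1. Of 8 measured genes of adult Leydig maturation, 2 were above the floor in all mice, Ephx1 (8.91 ± 0.38) and Vcam1 (8.64 ± 0.51), and both are also made by other cells. Sult1e1, an oestrogen sulphotransferase of adult Leydig cells, was at the floor in all mice, and Hsd11b1, which converts glucocorticoids, was above it in control 4 alone, at 3.96. Of 8 measured genes of fetal and progenitor Leydig cells, 5 were above the floor in all mice. These included Dlk1, a marker of immature Leydig cells (10.56 ± 0.31), Pdgfra, the receptor that progenitors use (10.12 ± 0.49), Tcf21 (9.11 ± 0.30) and Nr2f2 (7.97 ± 0.37).

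Nuclear receptors of the sex steroids were at the floor or were not analysed here. Esr1 and Esr2, the oestrogen receptors, and Pgr, the progesterone receptor, were at the floor in all 7 mice, with means of 2.38, 2.37 and 2.39. Nr3c1, the glucocorticoid receptor, averaged 8.12 ± 0.30 and Thra, a thyroid hormone receptor, 7.28 ± 0.26, while Thrb, the other thyroid hormone receptor gene, was at the floor. Ghr and Igf1r, receptors of growth hormone and insulin-like growth factor, averaged 6.33 ± 0.56 and 6.47 ± 0.37. Of 25 measured receptor genes, 12 were above the floor in all mice and 11 at the floor in all. The shares over all measured genes were 56.6% and 33.3%. The receptor of LH, the androgen receptor and Insl3 were not analysed here.

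The remaining somatic lists differed widely. Of 15 peritubular myoid genes, 9 were above the floor in all mice, against 56.6% of all measured genes. The smooth muscle genes Acta2 (11.17 ± 0.31), Myl9 (10.42 ± 0.21), Mylk (9.58 ± 0.17) and Myh11 (8.32 ± 0.24) were among them, whereas Des and Synpo2 were at the floor. Of 16 macrophage genes, 11 were above the floor in all mice, led by the mannose receptor gene Mrc1 (7.72 ± 0.26), Csf1r (7.62 ± 0.36) and Lyz2 (7.26 ± 0.47). Of 17 endothelial genes, 7 were above it, with Cldn5 (6.60 ± 0.51) and Eng (6.03 ± 0.33) highest, and Pecam1 was at the floor. None of 9 lymphocyte genes, none of 4 red cell genes and none of 9 epididymal genes was above the floor in all mice. Cd3e, Cd79a, Hba-a1 and Alas2, defining genes of T cells, B cells and red cells, were at the floor in every mouse. A value at the floor does not show that the cell type was absent.

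**Figure D1:**
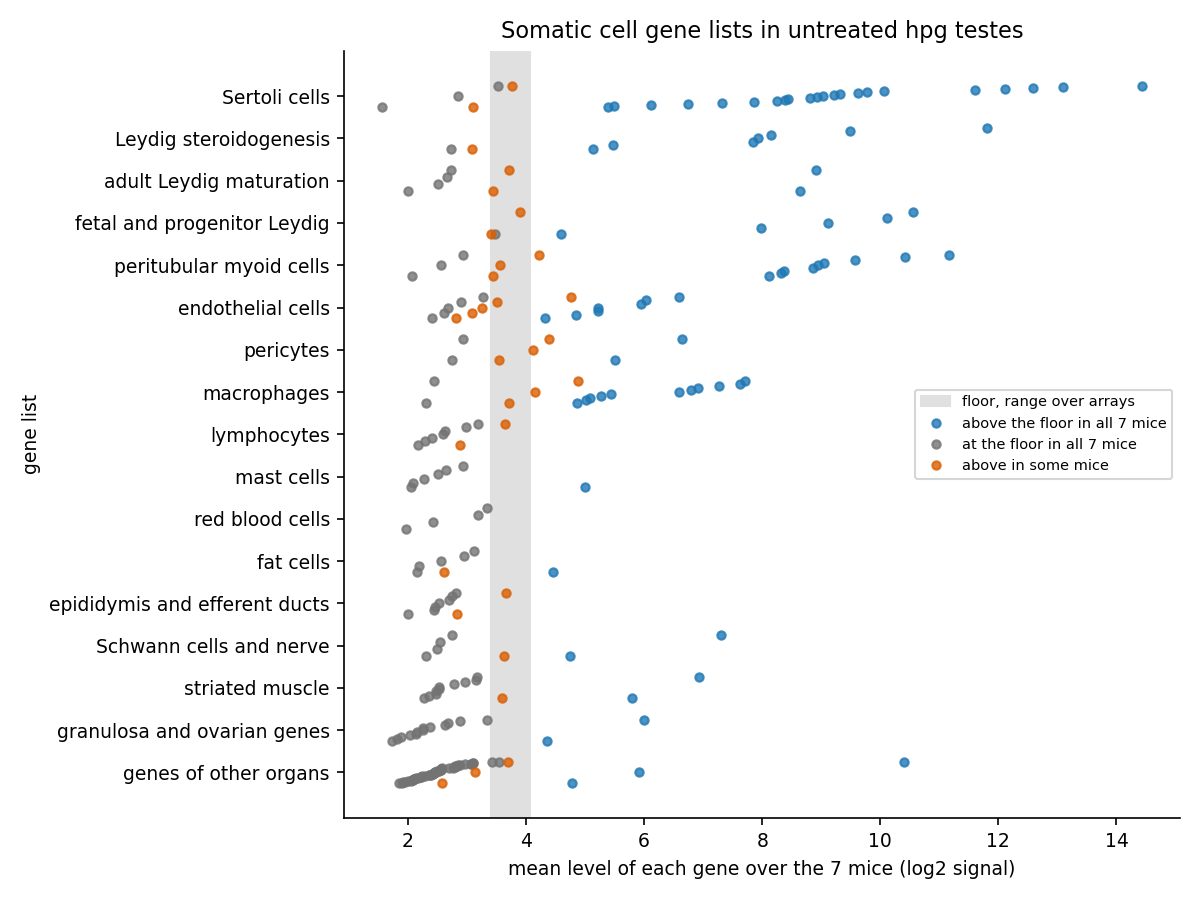
Mean level (log2 signal) of every measured gene of 17 somatic, ovarian and other-organ gene lists over the 7 untreated hpg testes, with the range of the array floors shaded and points coloured by whether the gene was above the floor in all 7 mice, in some, or in none. Sertoli and myoid genes reach 14.43 and 11.17, while none of the lymphocyte, red cell or epididymal genes was above the floor in all mice.

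Some transcripts known from other tissues were high in 1 mouse and others in all 7. In control 1 the fat and muscle carbonic anhydrase gene Car3 read 8.85, against 3.03 to 4.76 in the others, the fat hormone gene Adipoq read 4.92, against 2.12 to 2.53, and the fat gene Fabp4 read 6.58, against 3.67 to 4.61. Of the 7 measured genes of the fat list, 2 were above the floor in control 1, against 1 in each other mouse, and 5, Lep, Retn, Cidec, Lipe and Pck1, were at the floor in all mice. Lcn5, an epididymal lipocalin, read 4.19 in control 3, against 2.51 to 2.74. The muscle list was at the floor for 10 of 13 genes, including Ckm and Acta1, yet Myh6 and Myh8, heart and perinatal muscle myosins, averaged 6.92 ± 0.78 and 5.79 ± 0.44. Tnni3, cardiac troponin I, was chosen as a gene of another organ and read 10.0 to 10.7 in all 7 mice.

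Immunoglobulin transcripts set controls 4 and 7 apart, as was noticed among the genes with a wide spread. Igha, the immunoglobulin A heavy chain constant region, read 3.89, 3.39, 3.72, 10.4, 6.51, 5.31 and 9.32 in controls 1 to 7, and its 3 probe sets were each highest in control 4 and next in control 7. Jchain, the joining chain of secreted antibody, read 7.57 in control 4 and 5.16 in control 7, against 2.61 to 3.09 in the others, and Igkv8-30 read 8.90 and 7.89 in controls 4 and 7, against 4.53 to 5.18. The chemokine gene Ccl8 read 8.38 and 8.10 in these mice, against 3.62 to 5.22. Cd79a, which marks B cells, read 2.11 to 2.20 in all mice and so was at the floor on the same arrays.

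All 11 measured genes of the list named germ cells of all stages were above the floor in all 7 untreated mice. Their SD within array sets had a median of 0.29 and was highest for Ddx25, a helicase of meiotic and later germ cells, at 1.11. Tex101, a germ cell surface glycoprotein, read 11.10 to 12.19 in controls 2 to 7 and was lowest in control 1, with a median of 11.58. Dazl, an RNA-binding protein that germ cells need, read 11.17, 11.16, 11.02, 11.08, 11.07, 10.76 and 11.02, and Ddx4, the germ cell helicase, read 8.87 to 9.79. For this brightest Dazl probe set the 7 mice lay within 0.41 of each other, lowest in control 6. The other Dazl probe set read 10.61 to 11.44, lowest in control 4.

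Some transcripts of spermatogonia were above the floor in every mouse and others were at it. All 7 measured genes of differentiating spermatogonia were above the floor in every mouse. Stra8, which retinoic acid induces as germ cells enter meiosis, read 9.69, 10.18, 9.46, 9.83, 10.19, 9.64 and 9.82, and Uchl1 read 9.14 to 9.61. Kit, the receptor of differentiating spermatogonia that Leydig cells also use, read 7.12 to 8.25. Of 18 genes of undifferentiated spermatogonia, 7 were above the floor in all mice and 7 at the floor in all. Id4, Elavl2, Foxo1 and Sall4, regulators of spermatogonial stem cells and their early progeny, averaged 8.15 ± 0.44, 7.92 ± 0.50, 7.83 ± 0.29 and 6.26 ± 0.28. Gfra1, the receptor for glial cell line-derived factor on stem cells, read 3.48, 2.54, 4.09, 2.53, 2.49, 2.52 and 2.54, so it passed the floor in control 3 alone. Zbtb16, another stem cell regulator, was at the floor in all mice, at 2.72 to 3.92, as were Neurog3, Thy1 and Pou5f1.

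Early meiosis was represented by 14 of 16 genes above the floor in all 7 mice, with a median level of 8.57. Sycp3, which builds the lateral element of the synaptonemal complex, read 11.78, 11.09, 11.96, 11.91, 11.69, 11.75 and 12.22. Sycp1, the transverse filament protein, read 9.44 to 10.62 and Syce2, of the central element, 10.06 to 10.51. Smc1b, a meiotic cohesin, averaged 9.50 ± 0.28, and Dmc1, the meiotic recombinase, 8.78 ± 0.17. Spo11, which cuts DNA to start recombination, read 5.58, 4.57, 6.04, 6.26, 5.35, 6.55 and 6.67, and Prdm9, which marks where the cuts fall, read 4.05 to 5.05. The list's median in single mice lay between 8.30 and 8.90.

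Many pachytene transcripts split the mice. The median level of 19 pachytene genes was 5.56, 5.05, 7.25, 7.34, 5.80, 8.93 and 7.89 in controls 1 to 7. Of the 19, 11 were above the floor in all mice, against 56.6% of all measured genes. The median was lowest in controls 1, 2 and 5 and highest in control 6. Set 1 held the low controls 1 and 2 and control 3, in the middle of the order. Set 2 held the low control 5 and the highest mice, controls 4, 6 and 7. The median difference of set 1 minus set 2 over these genes was -1.08. Ldhc, the lactate dehydrogenase of germ cells, read 7.64, 7.22, 10.95, 10.96, 6.48, 12.42 and 11.45, a range of 5.93 on the log2 scale, and its second probe set had the same low mice, controls 1, 2 and 5, with controls 3 and 4 in the other order. Adam2, a sperm surface fertilin, read 3.12, 3.04, 6.96, 6.72, 3.17, 8.04 and 7.36, at the floor in controls 1, 2 and 5. Piwil1, which binds the pachytene small RNAs, read 4.02, 3.99, 7.25, 7.34, 3.57, 7.97 and 7.89. Crisp2, Fabp9, Clgn and Slc2a3, which encode a sperm secretory protein, a fatty acid binding protein, an endoplasmic reticulum chaperone and a glucose transporter, were each lower in controls 1, 2 and 5 than in the other mice. For Crisp2 the values were 5.27, 4.35, 9.14, 9.23, 5.30, 11.27 and 9.75.

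Other genes of the same stage varied over a narrower range or were at the floor. Cks2, a cyclin-dependent kinase partner, read 10.32, 10.64, 11.53, 10.88, 10.33, 10.98 and 11.41, and Hspa2, the heat shock protein that spermatocytes need, read 8.44, 8.22, 9.99, 9.13, 7.47, 9.75 and 9.22. Controls 1, 2 and 5 were the lowest for both. Mybl1, which encodes the transcription factor A-MYB, and Ovol1 were at the floor in all mice, at 2.98 to 3.85 and 2.67 to 3.19. Ccna1, the meiotic A-type cyclin, was at the floor in controls 1, 2, 3 and 5 and read 3.62, 6.18 and 3.81 in controls 4, 6 and 7.

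**Figure D2:**
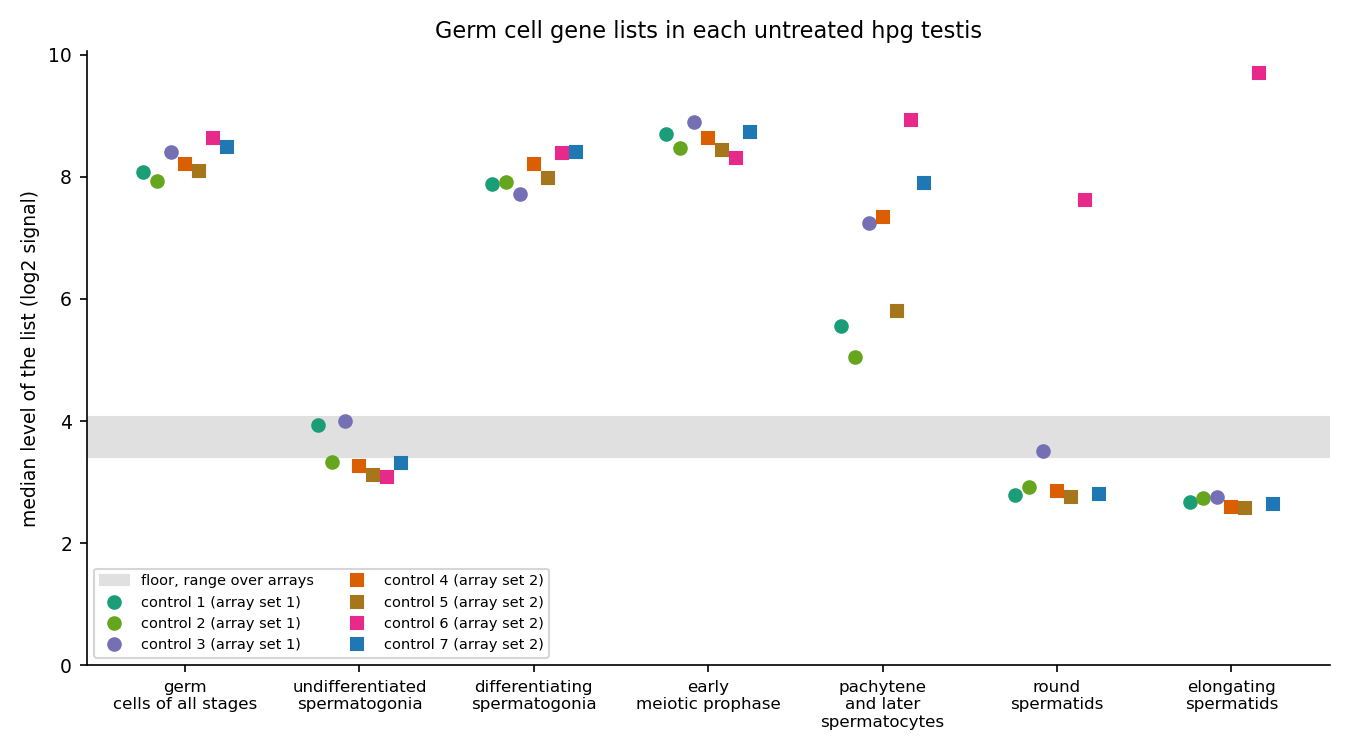
Median level (log2 signal) of 7 germ cell gene lists in each of the 7 untreated hpg testes, with circles for array set 1, squares for array set 2 and the range of the array floors shaded. The mice lie between 8.30 and 8.90 for early meiosis, spread from 5.05 to 8.93 for pachytene genes, and control 6 alone has medians above the floor for both spermatid lists (7.62 and 9.71).

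Most transcripts of spermatids were above the floor in control 6 alone. Of 14 measured genes of elongating spermatids, control 6 had 14 above the floor, control 2 had 2 and the other mice had 1 each. The list's median was 9.71 in control 6 and 2.58 to 2.75 in the other 6 mice. The gene above the floor everywhere was Odf2 (8.41 to 9.03 in its brightest probe set), which also serves centrosomes. Its other probe sets were above the floor in all mice too, and highest in control 6. They read 9.73 and 10.12 there, against 4.94 to 7.29 and 5.60 to 7.77 in the other mice. Of 16 genes of round spermatids, 15 were above the floor in control 6, against 4 to 7 in the others, and the median was 7.62, against 2.75 to 3.51. Without control 6, 12 of the 14 elongating spermatid genes were at the floor in every mouse, and 9 of the 16 round spermatid genes.

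Prm1 and Prm2, the protamines that replace histones in the sperm head, read 12.04 and 12.30 in control 6. In the other 6 mice Prm1 read 2.87 to 3.44 and Prm2 2.94 to 3.12, all at the floor, so the level in control 6 was at least 325-fold and at least 390-fold higher than the mean floor of the other arrays. The 3 probe sets of Prm1 read 11.39, 13.01 and 12.04 in control 6. Tnp1 and Tnp2, the transition proteins that precede the protamines, read 11.65 and 12.06 in control 6, against 2.96 to 4.15 and 2.39 to 2.56. A second probe set of Tnp1 read 4.8 in control 6. Prm1, Prm2, Prm3 and Tnp2 lie side by side within 8889 bases of chromosome 16 (GRCm38.p6), and Prm3 read 7.66 in control 6, against 2.43 to 2.58 in the others.

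Several genes of the sperm tail and the acrosome, the cap that opens the egg coat, were also high in control 6 alone, and others were not. Odf1, of the outer dense fibres, read 10.64 in control 6, against 2.94 to 3.40, Akap4, of the fibrous sheath, 9.01 against 2.79 to 3.23, and Smcp, of the sperm mitochondrial capsule, 9.99 against 2.44 to 2.67. All 3 probe sets of Akap4 showed this difference. Gapdhs, the glycolytic enzyme of the tail, read 8.07 against 2.28 to 2.34, and Hils1, a spermatid linker histone, 10.15 against 2.47 to 2.55. Acrv1, of the acrosomal matrix, read 7.68 in control 6, against 2.48 to 3.51. Acr, which encodes the acrosomal protease acrosin and is transcribed earlier, read 3.82, 4.28, 5.20, 5.42, 3.82, 8.27 and 5.57. Tekt1, a tektin of the tail, read 4.11, 3.93, 6.87, 6.45, 4.01, 8.58 and 7.43, and Zpbp, which binds the egg coat, 3.95, 4.59, 5.58, 6.36, 4.28, 8.72 and 7.05. Acr, Tekt1 and Zpbp were thus each lowest in controls 1, 2 and 5, as Ldhc and Adam2 were, and Acr and Zpbp were above the floor in all 7 mice and Tekt1 in 6.

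**Figure D3:**
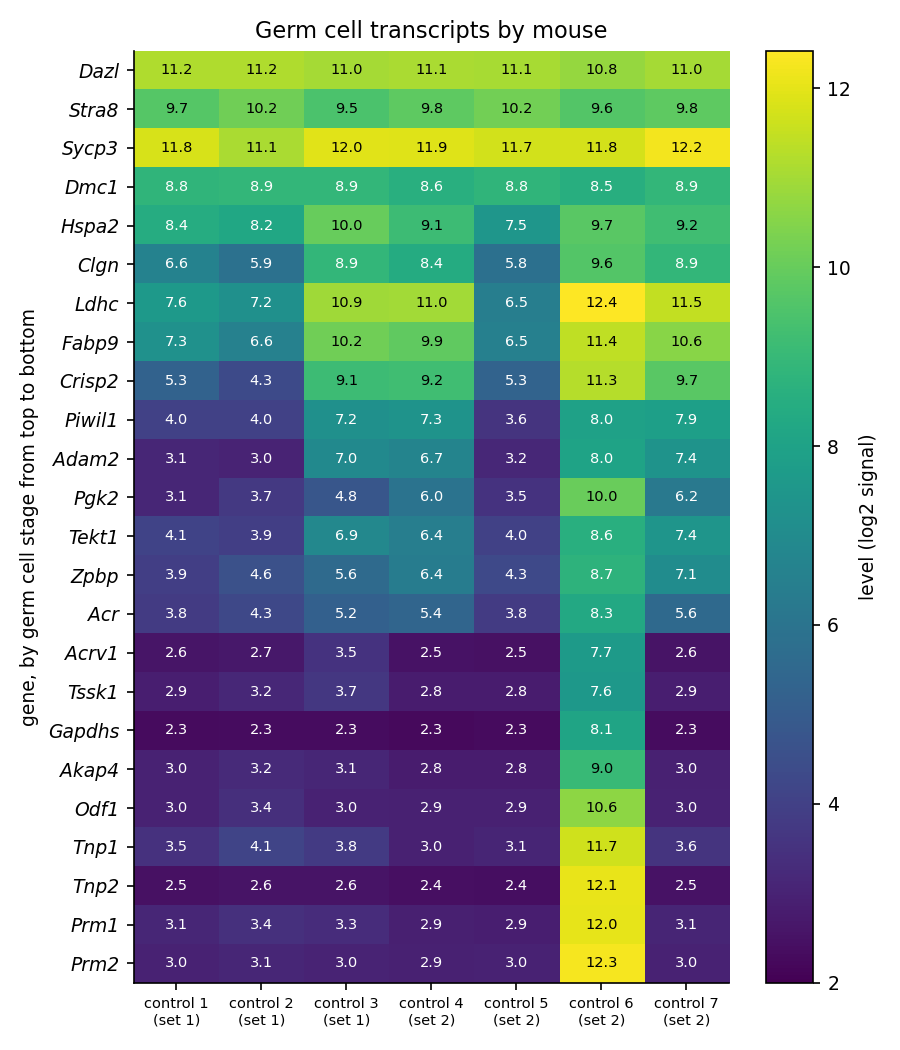
Level (log2 signal, colour and printed value) of 24 germ cell genes, from spermatogonial at the top to elongating spermatid at the bottom, in each untreated hpg mouse. Dazl, Stra8, Sycp3 and Dmc1 are alike in all columns, Ldhc to Adam2 are low in controls 1, 2 and 5, and Acrv1 to Prm2 are high in control 6 alone.

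Across all genes, 151 exceeded every other array by more than 2 on the log2 scale in control 6, against at most 2 genes for any other mouse. Of the 151, 24 belonged to the spermatid lists and 3 to the pachytene list. Among the somatic genes, control 6 was also highest for Aif1, a macrophage gene (6.71, against 3.49 to 3.79), although it was highest for 3 of the 16 macrophage genes and the list's median there, 5.49, lay within the 4.60 to 5.81 of the other mice. It was highest for Ptgds, a prostaglandin synthase of adult Leydig cells and other cells (5.23, against 3.38 to 3.75). Of the 27 Sertoli genes, control 6 was highest for 4 and lowest for 8. The 4 included Rhox5 (5.56, against 3.02 to 4.19), Eppin (7.10, against 4.15 to 6.51) and Tsx (9.30, against 7.28 to 8.54). The Leydig enzymes of control 6 did not stand out, with Hsd17b3 at 2.75, Cyp11a1 at 2.84, Star at 5.22 and Cyp17a1 at 8.25. Lcn5 read 2.60 in control 6 and the epididymal list had 0 genes above the floor there.

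The promoters of the stage-specific genes were set beside these values. The 4 sequences shown are the 250 bases before the RefSeq transcript start (GRCm38.p6, 5′ to 3′ on the gene's strand) of 3 genes that were high in control 6 alone and of Ldhc, which split the mice. Capitals mark matches of TGACNTCA, an element of the kind that the spermatid activator CREM binds, or in Ldhc of TAACGG, an element of the kind that A-MYB binds, on either strand.
Prm1, chr16:10796824-10797073, minus strand: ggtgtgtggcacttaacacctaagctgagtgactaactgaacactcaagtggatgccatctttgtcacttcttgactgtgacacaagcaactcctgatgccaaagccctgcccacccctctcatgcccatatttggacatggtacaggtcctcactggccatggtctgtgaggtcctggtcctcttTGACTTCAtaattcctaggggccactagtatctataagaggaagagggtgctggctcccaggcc
Tnp1, chr1:73015900-73016149, minus strand: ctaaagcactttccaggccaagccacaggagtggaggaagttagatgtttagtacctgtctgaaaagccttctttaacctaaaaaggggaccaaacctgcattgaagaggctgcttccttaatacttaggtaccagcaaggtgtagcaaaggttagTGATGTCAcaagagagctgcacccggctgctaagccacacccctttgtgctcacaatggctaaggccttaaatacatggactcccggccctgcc
Gapdhs, chr7:30743682-30743931, minus strand: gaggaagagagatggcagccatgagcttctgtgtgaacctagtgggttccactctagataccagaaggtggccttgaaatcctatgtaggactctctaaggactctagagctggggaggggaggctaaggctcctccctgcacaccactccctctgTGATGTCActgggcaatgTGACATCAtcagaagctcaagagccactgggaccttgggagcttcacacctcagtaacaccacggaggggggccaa
Ldhc, chr7:46861013-46861262, plus strand: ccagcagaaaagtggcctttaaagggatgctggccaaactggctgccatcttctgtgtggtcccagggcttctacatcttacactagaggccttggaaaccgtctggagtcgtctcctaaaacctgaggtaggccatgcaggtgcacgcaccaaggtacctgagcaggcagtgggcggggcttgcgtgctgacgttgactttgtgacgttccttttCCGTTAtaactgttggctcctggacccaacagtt

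In Prm1 the match TGACTTCA began 64 bases before the start, in Tnp1 TGATGTCA began 94 bases before it, and Gapdhs held a match 94 and another 76 bases before it. Of the 12 elongating spermatid genes with a promoter sequence, 6 held TGACNTCA, as did 7 of 13 round spermatid genes, 0 of 14 pachytene genes and 1 of 13 early meiotic genes, against 8.55% of the 27025 genes with such a sequence. TAACGG was in 4 of the 14 pachytene promoters, against 2.52% of all. It was also in 1 of 13 early meiotic, 1 of 13 round spermatid and 0 of 12 elongating spermatid promoters.

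Other motifs were searched on both strands too, and their counts follow for the early meiotic, pachytene, round and elongating spermatid promoters in that order. The GC box, GGGCGG, was in 5, 11, 3 and 3, against 35.4% of all promoters. The CCAAT box was in 6, 10, 4 and 6, against 37.5%. The TATA box, as TATAAA, was in 0, 0, 0 and 1, against 14.3%. The element AACNGTC was in 1, 2, 1 and 3, against 7.62%. The narrower form that it contains, AACTGTC, was in 1 of each, against 3.33%. TGACGTCA, which is contained in TGACNTCA, was in 0, 0, 1 and 0, against 1.77%. TGACGTNA, which contains it too, was in 0, 0, 2 and 0, against 2.92%. TGACCTTG and TCAAGGTCA, which share bases, were each in 1 elongating spermatid promoter and no other of these lists, against 1.51% and 0.422%. These matches are descriptions of the letters in this window, chosen for display after the counts were seen. Crem itself read 4.67, 3.81, 4.63, 4.80, 4.62, 4.55 and 4.74, and its value in control 6 lay among those of the other mice. These values lay near the floor, and that of control 2 was at it, so they cannot show whether Crem differed in control 6.

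Spread between mice was small for most genes. The SD between mice within array sets had a median of 0.23 over the genes above the floor, and 1 gene in 10 exceeded 0.44. Of the 7673 genes whose mean was above the mean floor of 3.68, 161 had an SD over 1, and control 6 held the highest value for 139 of them. That mean included control 6, so a gene could enter through control 6 alone, as Spata19 did (mean 3.73). The count of 139 is thus in part set by the rule. Control 6 was the highest array for 1305 of the 7011 genes above the floor in all mice, and control 5 for 1309. Those 7011 genes leave out any gene above the floor in control 6 alone. Of the 161 genes, 98 kept an SD over 1 without control 6. The lowest value lay in control 5 for 68 of the 161, in control 2 for 45 and in control 1 for 26. Of the 49 measured genes of the pachytene and spermatid lists, 22 were among the 161.

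Among the 7673 genes, the 15 with the widest spread included 6 of the germ cell lists, Tnp2, Prm2, Prm1, Tnp1, Odf1 and Spata19. All 15 were Tnp2, Prm2, Prm1, Tnp1, Fbp1, Odf1, Catsperz, 1700074P13Rik, Gk2, Hmgb4, Spata4, Pgam2, Cst9, Cetn1 and Spata19. Without control 6, 8 of the 15 kept an SD over 1, Fbp1, Catsperz, 1700074P13Rik, Gk2, Spata4, Pgam2, Cst9 and Cetn1, at 2.60 to 3.24, and the SDs of the other 7 were 0.05 to 0.33. Hmgb4 and Spata19 followed the protamines, at 9.84 and 9.43 in control 6, against 2.58 to 2.88 and 2.70 to 2.92 in the others. Fbp1, a gluconeogenic enzyme, read 3.51, 3.10, 8.60, 8.28, 2.88, 10.05 and 9.15, and Catsperz, of the sperm calcium channel, 3.22, 3.05, 7.37, 7.32, 2.25, 9.81 and 8.17. Spata4, Gk2, Pgam2 and Cetn1 had the same low mice, controls 1, 2 and 5. Sspn, of the dystrophin complex, had an SD of 2.20 and another order, at 6.93, 7.13, 2.52, 7.32, 6.48, 3.04 and 6.17, and was at the floor in controls 3 and 6.

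**Figure D4:**
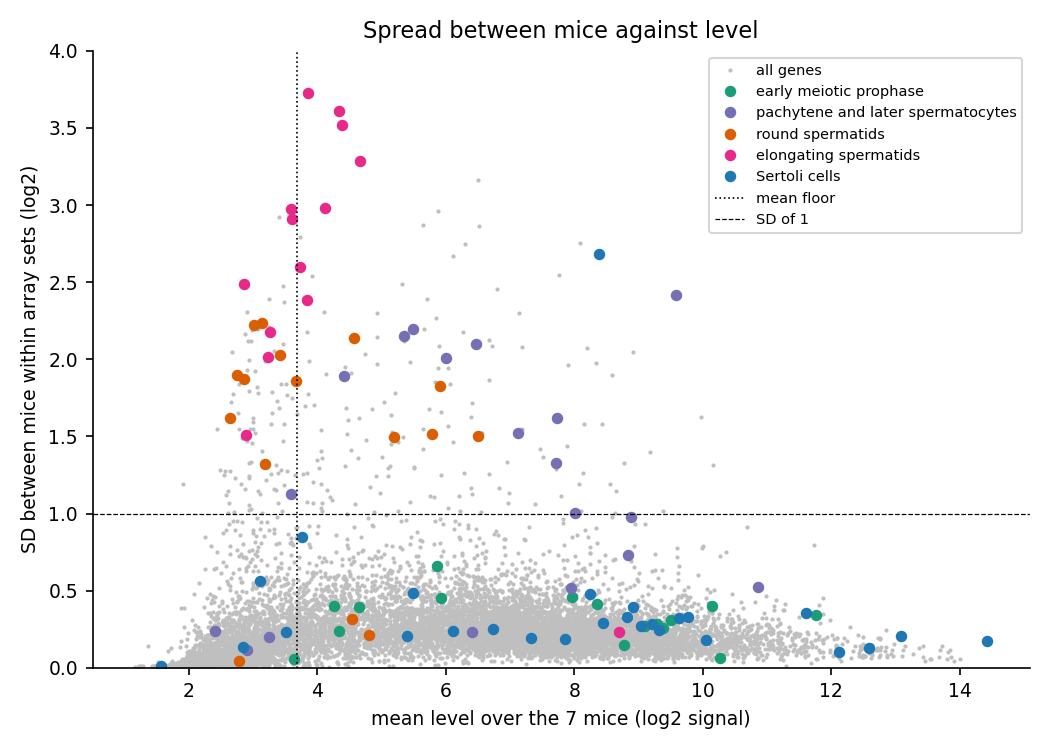
SD between mice within array sets (log2) against mean level (log2 signal) for the 12393 genes, with 5 gene lists coloured, the mean floor dotted and an SD of 1 dashed. Elongating spermatid genes reach an SD of 3.73 (0.33 without control 6), pachytene genes 2.42 (also 2.42 without it) and early meiotic genes 0.66, and the Sertoli genes Cst9 and Rhox5 lie at 2.68 and 0.85.

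Germ cells replace several housekeeping proteins by versions of their own as meiosis proceeds. Of 20 such pairs with both members measured, all 20 general members were above the floor in all mice, and 13 of the germ cell members. The germ cell member had the wider SD between mice in 19 of 20 pairs, with medians of 1.22 for germ cell and 0.26 for general members, and control 6 was highest for 16 of the germ cell members. Without control 6, the germ cell member was wider in 17 of 20 pairs, with medians of 1.02 and 0.22. Members such as Pgk2, Cyct, Hspa2 and Capza3 are also on the pachytene or elongating spermatid lists, so the pairs in part recount those genes. The general partner of Ldhc was itself lowest in controls 1, 2 and 5, at 7.98, 8.11, 9.25, 9.42, 8.32, 10.89 and 9.74 in controls 1 to 7. Pgk2, the germ cell phosphoglycerate kinase, read 3.11, 3.75, 4.79, 5.99, 3.53, 10.04 and 6.21, while Pgk1 read 7.56 to 8.32. Cyct, the testis cytochrome c, read 5.64 to 8.93 and Cycs, the somatic one, 11.4 to 12.0. Pdha2, of pyruvate dehydrogenase, read 5.75 to 9.36 and its X-linked partner Pdha1 7.17 to 7.82. Capza3, an actin-capping subunit of sperm, was high in control 6 alone (8.05, against 2.39 to 2.56), and Capza2 read 8.64 to 9.40. The pair that ran the other way was the cohesin Rec8, with an SD of 0.24, against 0.28 for Rad21. The pairs were compared by their spread, since levels of different probe sets cannot be set against each other.

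Most cell division genes were above the floor. Of 27 genes of S phase and mitosis, 25 were above the floor in all mice, with Pcna (11.63 ± 0.24), Mcm7 (10.73 ± 0.11), Top2a (10.24 ± 0.14) and Cdc20 (10.18 ± 0.28) highest. Of 15 cell cycle arrest genes, 13 were above it, and Cdkn2a, which encodes an inhibitor of cyclin D kinases, was at the floor. Among imprinted genes, 12 of 19 were above the floor in all mice, against 56.6% of all measured genes. The fetal growth genes Igf2 (9.37 ± 0.38) and Meg3 (10.45 ± 0.38) and Ndn (10.02 ± 0.24) were among those above the floor. Cholesterol synthesis genes were above it in 16 of 18 cases, led by Hmgcs1 (10.28 ± 0.21), the entry enzyme of the pathway. In glucose use, 16 of 17 were above it, led by Ldhb (12.18 ± 0.29), and Slc16a1, a lactate carrier, averaged 9.60 ± 0.27.

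Matrix, junction and detoxification genes were prominent. Of 31 matrix genes, 27 were above the floor in all mice, with the proteoglycan gene Dcn (12.64 ± 0.16), Sparc (11.35 ± 0.25) and Mgp (11.33 ± 0.27) highest. Of 20 junction genes, 18 were above it, led by Ctnnb1, beta-catenin (12.45 ± 0.17), and the gap junction gene Gja1 (11.09 ± 0.46). Cdh1 and Cldn3, of epithelial junctions, were at the floor. Aldh1a1, which makes retinoic acid, averaged 12.45 ± 0.11, and Lrat, which stores retinol, was at the floor. Of 29 glutathione and antioxidant genes, 26 were above it, with Gstm1 (12.72 ± 0.12) highest, and Gpx5, the epididymal member, was at the floor. Ovarian genes gave a contrast, with 13 of 15 at the floor in all mice, including Gdf9 and Zp3 of the oocyte.

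The 2 array sets differed for 772 of 22626 probe sets, 3.41% (limma, two-sided, Benjamini-Hochberg adjusted p below 0.05), of which 371 were higher in set 1 (1.64%) and 401 lower (1.77%). Counted with 1 probe set per gene, 389 genes, 3.14%, were called. The number depended on single mice, with 431, 290, 265, 369 and 211 probe sets called without controls 3, 4, 5, 6 and 7. Median centring moved the split to 465 higher and 257 lower, and quantile normalization to 417 and 207. The set is not a treatment, and its part in the differences between mice was not tested, beyond the SDs within sets given here.

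The largest set differences were not always alike across the probe sets of a gene. Sdc4, a syndecan, read 9.27, 12.88 and 12.55 in set 1 and 5.65, 5.54, 5.57 and 5.46 in set 2, a difference of 6.01 ± 0.87 (SE; limma, adjusted p = 0.0279). Its other probe set read 8.4 to 8.7 in set 1 and 6.6 to 7.2 in set 2, so it was higher in set 1 too, without overlap and by less. Hnrnpab, an RNA-binding protein, differed by 2.51 ± 0.23 (limma, adjusted p = 0.00925), at 12.4, 12.3 and 12.6 in set 1 and 9.33, 10.1, 10.2 and 10.1 in set 2, while its other 3 probe sets above the floor overlapped between the sets. Pdia4, an endoplasmic reticulum chaperone, read 8.80, 8.79 and 8.66 in set 1 and 6.45, 6.13, 6.36 and 6.62 in set 2, a difference of 2.36 ± 0.12 (limma, adjusted p = 0.00505). The other genes with the largest rises in set 1 were Rpl27a, Agpat1, Usp22, Otub1, Trim35, Sema3c and Klhl24, with differences of 2.01 to 3.71.

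Lower values in set 1 were smaller in size. Ift20, of intraflagellar transport, read 6.36, 6.60 and 6.79 in set 1 and 8.44, 8.30, 8.33 and 8.21 in set 2, a difference of -1.73 ± 0.11 (SE; limma, adjusted p = 0.00505). Socs2, a suppressor of cytokine signalling, differed by -1.82 ± 0.33 (limma, adjusted p = 0.0456) and Eppin by -1.96 ± 0.34 (limma, adjusted p = 0.0399). The others were Zfp612, Banp, Map1b, Akap9, Zfp33b, Limd1 and Camsap1, with differences between -2.41 and -1.65. Of the somatic cell lists, Sertoli cells had 2 of 27 genes called, both lower in set 1 (Fshr and Eppin), and macrophages 3 of 16, all lower in set 1. Pathway lists had calls in both directions. Junction genes had 2 of 20 called and inhibin, activin and anti-Müllerian signalling 2 of 20, all higher in set 1. Oxidative phosphorylation had 1 of 21 higher and 2 lower, and glutathione and antioxidant genes 1 of 29 higher and 1 lower. Egfr and the Y-linked Uty were higher, and Plk1 and Rplp0 lower. Of the germ cell lists, undifferentiated spermatogonia had 1 of 18 called, Sall4, at -0.48 ± 0.09 (SE; limma, adjusted p = 0.0456), and early meiosis 1 of 16, Syce2, at -0.29 ± 0.05 (limma, adjusted p = 0.0454). Both calls were lost under median centring, under quantile normalization and without the low probe sets (adjusted p 0.056 to 0.13), and in each fit that left out 1 mouse, except for Sall4 without control 4. By limma none of the 11 genes of germ cells of all stages, the 7 of differentiating spermatogonia, the 19 pachytene, the 16 round spermatid or the 14 elongating spermatid genes was called, against 3.14% of all genes, and 2, 2, 2, 1 and 0 of them had an unadjusted p below 0.05. Lists of this size hold too few genes to tell 0 calls from the share over all genes.

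**Figure D5:**
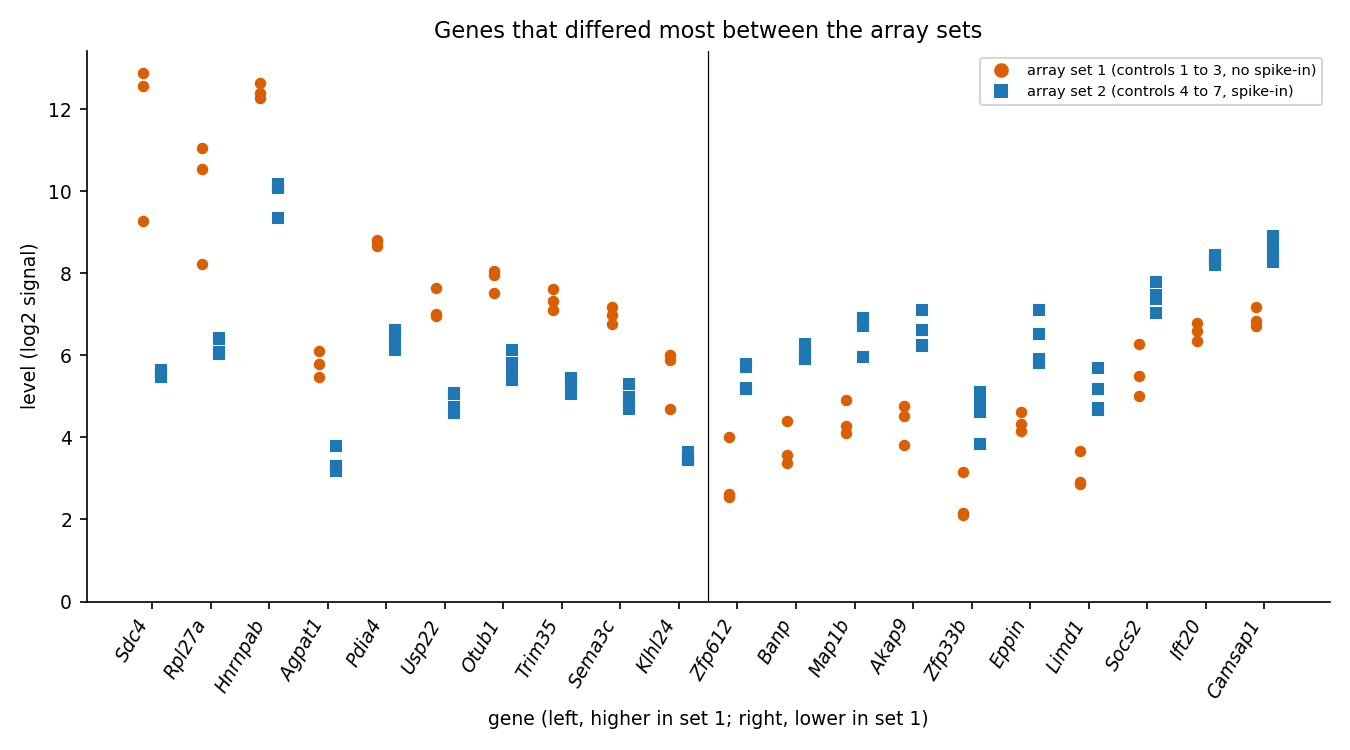
Level (log2 signal) of the 10 genes with the largest positive and the 10 with the largest negative difference between array sets, with 1 point per untreated hpg mouse, circles for set 1 (controls 1 to 3) and squares for set 2 (controls 4 to 7). Points of the sets do not overlap for any of the 20 genes, and Sdc4 spans 5.46 to 12.88.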

How the data were processed

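Values were read from the 1 table of expression values that the authors deposited, whose log2 scale was taken from its range in the controls (1.04 to 15.2). RMA and GCRMA, which both remove background and put arrays on a common scale, are the tools listed in the submitters' processing notes. Which one gave the deposited log2 values, and in which version, is not given in the sources used here. Of its 22690 probe sets, 64 were array controls. Of the other 22626, 20380 had 1 gene symbol in the platform annotation, 691 several and 1555 none, and only the first were named. The array set was taken from the spike-in signal (mean Dap level above 6). For set 1 minus set 2, limma 3.58.1 (R 4.3.3) was run on the 7 controls alone, after a test on simulated data.

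Named genes were the 20 highest, the 15 widest in spread, the 10 largest set differences in each direction, the 5 highest and up to 3 lowest floor members of each of 42 gene lists (665 of 789 genes measured), the paired germ cell and general genes and a list of known testis genes. Other genes were chosen after their values were seen. Members and lists were chosen with earlier results of these data known. The arrays' number limits precision, and the SDs cover mice and arrays together. Promoter sequences are RefSeq's. Python 3.11.15 with pandas 2.3.3 made the tables.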

Additional observations from a re-analysis of the deposited data

Results flagged for a closer look

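Of the 199 genes named here, 36 had 1 mouse whose level stood away from the other 6 by more than a set share of the whole range (Dixon's 95% critical value for 7 samples). Chance alone gives such a flag for about 1 gene in 20, and 7.79% of the genes above the floor had one, so a single flag carries little weight. A total of 19 of the 36 were high values of control 6. The named genes included the widest in spread, members of the spermatid lists and genes chosen after their values were seen. The counts of 36 and 19 are thus in part set by the choice of genes, and 36 of 199 cannot be compared with the 7.79%.

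In control 6 the spermatid genes stood above the other mice, with Prm1 at 12.04, Prm2 at 12.30, Prm3 at 7.66, Tnp1 at 11.65, Tnp2 at 12.06, Odf1 at 10.64, Akap4 at 9.01, Smcp at 9.99, Hils1 at 10.15, Gapdhs at 8.07, Capza3 at 8.05, Spata19 at 9.43, Hmgb4 at 9.84, Tssk1 (a spermatid kinase) at 7.56, Acrv1 at 7.68 and Acr at 8.27. Ccna1 at 6.18, Aif1 at 6.71 and Ptgds at 5.23 were likewise highest there. Control 6 was the low mouse for Dazl (10.76, against 11.02 to 11.17), Cycs (11.45, against 11.83 to 12.01) and Myh8 (4.82, against 5.70 to 6.10). The label calls this mouse untreated, and the cause of its spermatid signal was not tested.

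In control 5 the steroid genes Cyp11a1 (4.40, against 2.69 to 3.05) and Star (6.42, against 5.12 to 5.62) stood high, as did Myh6 at 8.53, Ndn at 10.50, Fst at 3.28 and Pecam1 at 3.23, the last 2 still at the floor. Control 1 stood high for Adipoq at 4.92, Car3 at 8.85 and Fabp4 at 6.58. Control 3 stood high for Lcn5 at 4.19, and at the floor for Zbtb16 at 3.92 and Cd3e at 2.98, and low for Foxo1 (7.25, against 7.75 to 8.12). Control 2 was low, and at the floor, for Crem (3.81, against 4.55 to 4.80).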

How the results depend on the processing

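With the floor at the 99th percentile of the other-organ probe sets, 3104 genes were above it in all mice and 7415 at it, since that percentile is close to the single brightest of 74 probe sets (Tnni3 at 10.40). The other floors, the other probe rule, quantile normalization and either array set alone kept both counts within 1.5 times, and leaving out 1 mouse gave 7015 to 7130 genes above the floor and 4138 to 4305 at it. A floor from 27 bacterial probe sets on set 1 alone, chosen after seeing the data, gave 7408 and 4360. The median SD within sets was 0.21 with the median over probe sets of a gene, 0.27 as the SD over all 7 arrays and 0.21 to 0.23 with 1 mouse left out. The array sets differed for 211 to 931 probe sets with 1 mouse left out, against 772, and for 722, 624 and 909 with median centring, quantile normalization and a filter on low means. Of 230 repeated tests of named set differences, 91 lost the call and none changed direction. Of the list counts, 89 of 1176 moved by over 1.5 times, 55 of them under the 99th percentile. The SDs without control 6 for the widest genes, germ cell lists and isoform pairs were added after seeing the data. No paired analysis was possible because no comparison between labelled groups was made here. Low signal limits every value near the floor to a bound.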
